A study of Homo sapiens with 4 samples.

Results

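The genes described here are 5 HLA class I heavy chains (HLA-B, HLA-C, HLA-E, HLA-F and HLA-G), their light chain beta-2-microglobulin (B2M) and 3 genes of peptide loading (TAP1, TAP2 and TAPBP). They were taken by gene symbol from a table of 34692 gene entries, in which all 9 had an entry. Gene expression was measured with Illumina HumanHT-12 V4.0 beadchips, which read biotin-labelled RNA with bead-bound probes, in K562, a human cell line derived from chronic myelogenous leukaemia and grown in culture. Both groups were stable K562 transductants: 2 arrays of cells over-expressing ZNF16, which encodes a zinc finger protein, and 2 arrays of control transductants. The sources used here give no vector, selection or time after transduction, and do not say whether a transductant was 1 clone. Separate derivation of the replicates is not stated either, so every p-value covers the spread of these arrays alone, and that spread may be technical.

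Class I molecules present peptides from inside the cell to CD8 T cells and are read by inhibitory receptors of natural killer cells. A heavy chain folds with B2M in the endoplasmic reticulum, and the loading complex, in which tapasin (TAPBP) bridges the heavy chain to the TAP1-TAP2 peptide transporter, fills its groove with peptide. Interferon raises most of these genes through a shared promoter architecture, and NLRC5 is the transactivator of the class I group. K562 is known for very low surface class I and is widely used as a target of natural killer cells for that reason.

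Promoter sequences are shown because class I genes are controlled through short elements upstream of the start site, and because B2M and TAP1 were detected on every array while HLA-B and HLA-C, which carry several of the same elements, were not. The 250 bases before the start are reference sequence from RefSeq (GRCh38.p14), not the sequence of K562, and windows were matched for 8 of the 9 genes, HLA-E being the other. Each is written 5′ to 3′ on the strand of the gene. Capitals mark every match, on either strand, to the interferon-stimulated response element core (GAAANNGAAA), the NF-kB consensus, the TGACG core of the X2 box and the CCAAT core of the Y box.
B2M, chr15:44711267-44711516, plus strand: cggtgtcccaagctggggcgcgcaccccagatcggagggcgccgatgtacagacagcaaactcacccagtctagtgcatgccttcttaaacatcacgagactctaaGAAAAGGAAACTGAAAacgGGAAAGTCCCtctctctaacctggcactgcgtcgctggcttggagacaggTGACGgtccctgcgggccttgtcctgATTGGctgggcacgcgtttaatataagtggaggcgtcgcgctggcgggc
TAP1, chr6:32853705-32853954, minus strand: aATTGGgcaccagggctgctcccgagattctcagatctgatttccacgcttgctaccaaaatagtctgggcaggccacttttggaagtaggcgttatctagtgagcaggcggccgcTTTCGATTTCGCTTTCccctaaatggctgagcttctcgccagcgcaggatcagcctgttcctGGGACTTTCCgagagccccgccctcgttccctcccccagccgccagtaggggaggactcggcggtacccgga
HLA-B, chr6:31357180-31357429, minus strand: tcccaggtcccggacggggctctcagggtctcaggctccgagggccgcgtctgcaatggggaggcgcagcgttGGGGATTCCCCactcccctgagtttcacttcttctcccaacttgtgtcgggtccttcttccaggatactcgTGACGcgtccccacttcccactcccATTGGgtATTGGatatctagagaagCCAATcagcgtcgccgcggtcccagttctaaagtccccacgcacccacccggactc
HLA-C, chr6:31272093-31272342, minus strand: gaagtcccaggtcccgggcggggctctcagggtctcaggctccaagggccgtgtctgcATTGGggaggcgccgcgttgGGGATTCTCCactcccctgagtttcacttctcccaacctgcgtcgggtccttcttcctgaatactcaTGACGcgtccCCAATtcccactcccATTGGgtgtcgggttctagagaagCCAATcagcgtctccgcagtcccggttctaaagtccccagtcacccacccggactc

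The B2M window held 2 overlapping matches to the interferon element, beginning at −144 and −138 relative to the start, an NF-kB match, a TGACG and a reversed CCAAT. In the TAP1 window shown, which belongs to the more upstream of 2 annotated starts, 2 overlapping interferon matches began at −134 and −128. The window of the other TAP1 start, not shown, held no match to any of the elements searched. The HLA-B and HLA-C windows were 89.0% identical over 254 aligned columns. Each held a TGACG, at −106 in HLA-B and −105 in HLA-C, and a CCAAT at −56, but no match to the interferon core as spelled here. In HLA-B 2 NF-kB matches overlapped by all but 1 base. The windows of TAP2, TAPBP and HLA-F also held the interferon core. Of 35116 promoter windows of this length, 3.02% held the interferon core, 9.96% the NF-kB consensus, 21.2% TGACG and 32.0% CCAAT. These matches describe the letters only.

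Between 28.6% and 31.0% of entries were detected on each array, at a detection p-value under 0.05 against the array's negative control beads. The means of these beads, inferred from the detection p-values, lay between 370 and 393 intensity units. All 9 erythroid markers listed for K562 were detected on all 4 arrays, 6 higher and 3 lower with ZNF16. The embryonic globin HBZ had a log2 difference of 0.75, the transferrin receptor TFRC 0.57 and the factor GATA1 −0.39, and none of them passed the test. The ZNF16 entry, which combines several probes, was not detected on any array, with signals of 401 and 411 under over-expression and 393 and 363 in controls, so it does not check the labels. Over tested entries the ZNF16 arrays differed from each other with an SD of 0.341 on the log2 scale and the control arrays with one of 0.52, and control replicate 2 stood apart from the ZNF16 arrays at 0.610 and 0.525, against 0.413 and 0.377 for control replicate 1.

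Of the 9 genes, 4 were detected on all 4 arrays, HLA-E, B2M, TAP1 and TAP2, and 5 on none, HLA-B, HLA-C, HLA-F, HLA-G and TAPBP. Of all entries in the deposited table, 22.6% were detected on all 4 arrays. The 4 detected genes had lower mean levels with ZNF16 over-expression than in controls, by 1.90-fold for HLA-E, 1.51-fold for TAP1, 1.34-fold for B2M and 1.15-fold for TAP2 on the normalized log2 scale. None passed the test after adjustment over all 10868 tested entries. In bulk RNA, a smaller share of expressing cells and less RNA per cell cannot be told apart.

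**Figure D1:**
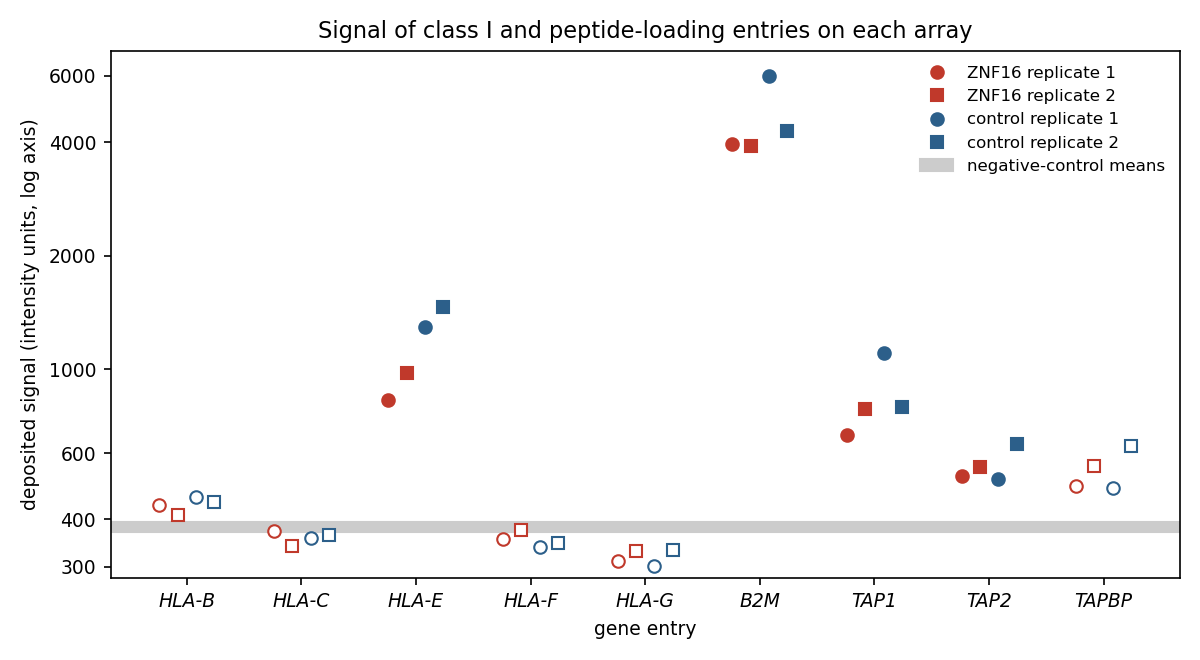
Deposited signal (intensity units, log axis) of the 9 entries on each array, filled where the detection p-value was under 0.05 and open where it was not. The grey band spans the inferred negative-control means of the 4 arrays. HLA-E, B2M, TAP1 and TAP2 lie above the band on every array, and HLA-B, HLA-C, HLA-F and HLA-G lie close to it.

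HLA-B and HLA-C are classical heavy chains, the polymorphic molecules that show peptides to T cells. The HLA-B signal was 437 and 412 with ZNF16 and 458 and 444 in controls, with detection p-values of 0.242, 0.366, 0.0506 and 0.226 in the same order. Control replicate 1 thus came within 0.001 of the detection limit, and both ZNF16 arrays lay below both control arrays. For HLA-C the signals were 373 and 339 with ZNF16 and 356 and 363 in controls, with detection p-values from 0.527 to 0.765. The groups overlapped, and HLA-C, whose entry averages several probes, could not be separated from the negative control beads on any array.

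HLA-F and HLA-G are non-classical heavy chains, HLA-G being best known from trophoblast. The HLA-F signal, averaged over several probes, was 356 and 375 with ZNF16 and 338 and 345 in controls. Its detection p-values lay between 0.533 and 0.872. HLA-G gave 309.6 and 329.5 with ZNF16 and 300.1 and 332.7 in controls, with detection p-values between 0.788 and 0.845. All 8 of these signals lay below the negative-control mean of their own array. Class I heavy chains are closely related in sequence and HLA-B and HLA-C differ between alleles. The probe sequences are not used here, so how well each probe pairs with the alleles of K562 was not tested.

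HLA-E is the non-classical heavy chain that presents peptides from the leader sequences of other class I chains to the NKG2A receptor of natural killer cells. Its signal was 829 and 978 with ZNF16 and 1292 and 1463 in controls, with a detection p-value of 0 on every array. Both ZNF16 arrays lay below both control arrays, and the gap between the groups, from 978 to 1292, exceeded the difference within either group. After background correction and quantile normalization the log2 values were 8.89 and 9.20 against 9.79 and 10.16. The log2 difference was −0.93 ± 0.25 (SE, n = 2 arrays a group throughout; 95% interval −1.51 to −0.34), with an unadjusted p of 0.00744 and a limma adjusted p of 0.455. A larger decrease was measured in 145 tested entries (1.33%), and 4.01% were lower with an unadjusted p under 0.05, against 3.66% higher. In the authors' deposited table of processed values HLA-E stood at 463 and 583 with ZNF16 and 874 and 1097 in controls, which keeps the same order.

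B2M encodes the light chain, without which classical class I does not reach the surface. Its signal was 3962 and 3908 with ZNF16 and 6004 and 4294 in controls, all detected. The ZNF16 arrays lay close together and below both controls, while the controls differed from each other by 0.36 on the log2 scale. On the log2 scale ZNF16 minus control came to −0.43 ± 0.23 (SE), at a limma adjusted p of 0.677 and with a 95% interval from −0.98 to 0.13. It was −0.25 when control replicate 1 was left out and −0.61 when control replicate 2 was, so the size depended on which control was kept.

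TAP1 and TAP2 are the subunits of the ATP-driven transporter that moves peptides into the endoplasmic reticulum. TAP1 gave signals of 670.3 and 786 with ZNF16 and 1105 and 796 in controls, all detected. On the normalized scale ZNF16 replicate 2 and control replicate 2 were at 8.655 and 8.657, so the groups were separated by almost nothing and control replicate 1 alone stood high, at 9.47. On the log2 scale ZNF16 minus control came to −0.59 ± 0.32 (SE), at a limma adjusted p of 0.677 and with a 95% interval from −1.35 to 0.17. Leaving out control replicate 1 gave −0.19 and leaving out control replicate 2 gave −0.995.

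TAP2 gave 522 and 553 with ZNF16 and 513 and 633 in controls, with detection p-values from 0.000121 to 0.0205. Control replicate 2 was highest and control replicate 1 lowest, so the groups overlapped. On the log2 scale ZNF16 minus control came to −0.20 ± 0.27 (SE), at a limma adjusted p of 0.867, and this turned to 0.11 without control replicate 2. TAP1 and TAP2 ordered the 2 control arrays in opposite ways. The TAP2 entry averages several probes and the TAP1 entry reads as a single one.

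TAPBP encodes tapasin, which holds empty class I molecules at the transporter. The signal was 492 and 555 with ZNF16 and 485 and 626 in controls, above the negative-control mean on every array, yet its detection p-values were 0.209, 0.208, 0.516 and 0.324. Single-probe entries within 10 intensity units of it on the same array had detection p-values of at most 0.0649. The detection p of TAPBP is an average over several probes, so a detected probe may lie beside undetected ones in this entry, and its absence from the tested entries does not show that tapasin RNA was missing. The groups overlapped, with control replicate 2 highest.

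For the 5 genes not detected in either group no difference in expression can be read, and a fit over every entry gave them limma adjusted p-values from 0.85 to 0.986. Among the 4 tested genes, 4 of 4 were lower with ZNF16 and the median log2 difference was −0.51, beside 5296 of 10868 tested entries lower and a median of 0.01 over all of them. Both ZNF16 arrays lay below both control arrays in 3 of the 4 (HLA-E, B2M and, by the margin given above, TAP1), beside 19.0% of all tested entries, with 21.0% separated in the other direction. Of the 4, 1 was lower at an unadjusted p under 0.05, HLA-E. No entry passed in limma's test, 0% of those tested, against 398 higher and 436 lower at an unadjusted p under 0.05. A permutation of 2 arrays against 2 cannot give a two-sided p under 0.333, so no exact test is quoted for single genes.

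No partner of the loading complex passed the test. Of 8 tested entries 6 were higher and 2 lower, with a median log2 difference of 0.03 (smallest limma adjusted p = 0.687). The lectin chaperones, which hold newly made heavy chains, differed in sign: calreticulin (CALR) had −0.56 ± 0.34 and calnexin (CANX) 0.32 ± 0.24 (SE). The CALR value rested on control replicate 2, with a signal of 3125 there and 1785 to 2004 on the other arrays, and it was −0.08 without that array, where CANX was 0.12. SEC61A1, of the translocon through which the chains enter the endoplasmic reticulum, had 0.46, and it was 0.05 without control replicate 2. The glucosidase subunit GANAB, which trims the sugar that the lectins bind, had 0.16, and 0.03 without ZNF16 replicate 2.

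HSPA5, the general chaperone of the compartment, had a log2 difference of −0.06, and the folding sensor UGCGL1 (now UGGT1) had 0.05. ERAP2, an aminopeptidase that trims peptides to length, had 0.01, and BCAP31, which helps class I leave the endoplasmic reticulum, had 0.00. These 4 differences were all smaller than their standard errors. The disulfide isomerase PDIA3 and the aminopeptidase ERAP1 were detected on no array. TAPBPL, the tapasin-related peptide editor, and the glucosidase subunit PRKCSH were detected on 1 array each, both controls. The ERAP1 and PRKCSH entries average several probes. PRKCSH gave signals of 999 and 1080 with ZNF16 and 1051 and 970 in controls, so its detection calls do not show that its RNA was missing.

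Peptides for class I come from the proteasome, whose catalytic subunits are exchanged for inducible ones under interferon. The inducible subunits PSMB8 and PSMB9, whose entries average several probes, were detected on no array, with detection p-values between 0.617 and 0.899. PSMB9 is the genomic neighbour of TAP1, which was detected on every array. The third inducible subunit, PSMB10, was detected on every array at 5633 and 5564 with ZNF16 and 5195 and 4132 in controls, a log2 difference of 0.29 ± 0.22 (SE), with a limma adjusted p of 0.737. PSME2, of the PA28 activator, had −0.09. The constitutive catalytic subunits PSMB5, PSMB6 and PSMB7 had log2 differences of 0.31, 0.34 and 0.01, with adjusted p-values from 0.72 to 0.989.

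**Figure D2:**
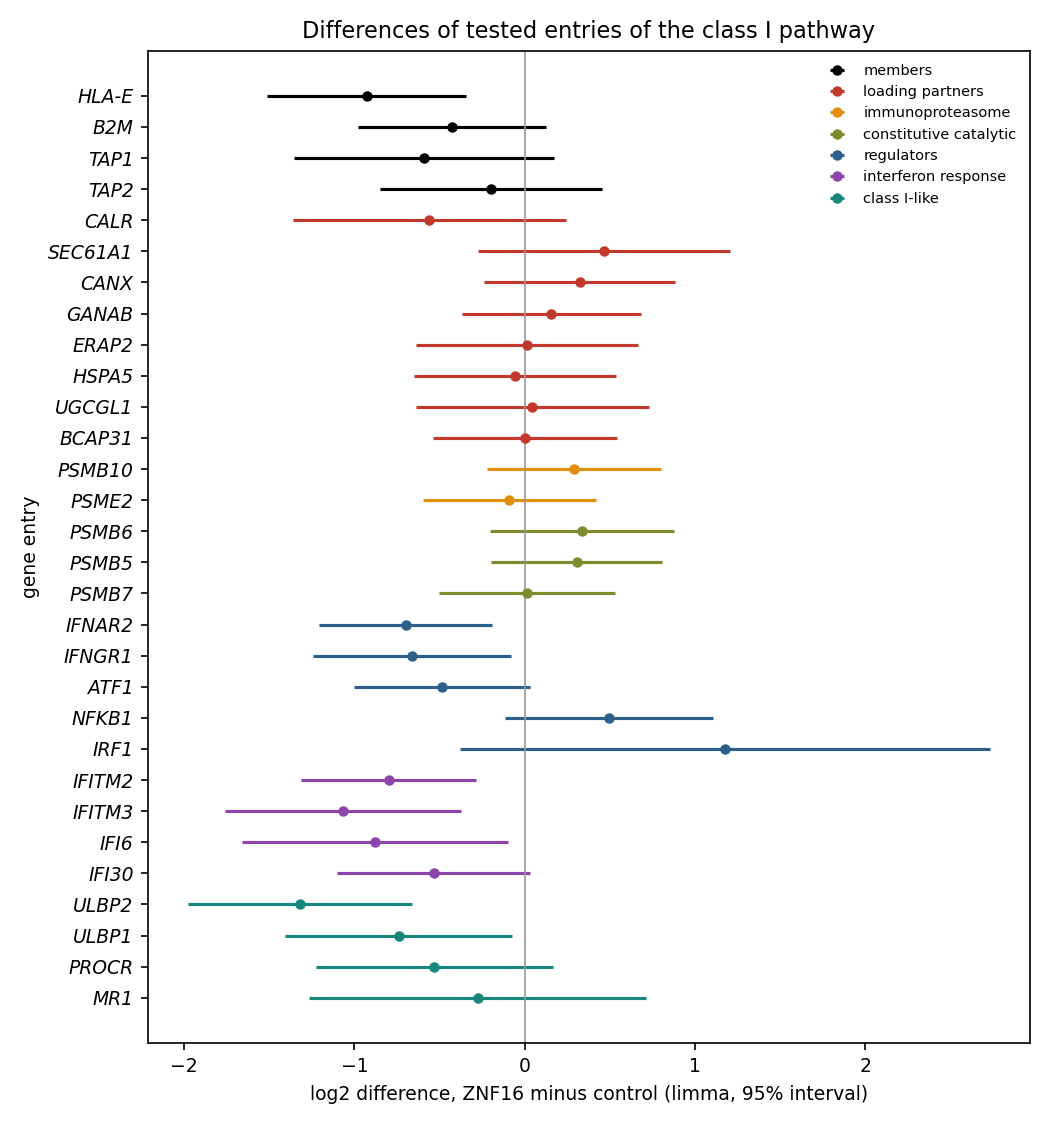
Log2 difference, ZNF16 minus control, for the tested entries of the class I pathway that are named here. The 95% interval is from limma, with 2 arrays in each group. Beyond the 4 members and the loading partners, most were named for having the smallest p in their list. The 4 class I and transporter genes lie below 0, and the proteasome and most chaperone entries near or above it. The interferon response and class I-like entries shown lie below 0, but they were picked by p. Of all tested entries in these lists, 2 of 9 and 2 of 7 were higher. IFI6 and ULBP2 were detected on no ZNF16 array, so their points rest on ZNF16 signals not above background.

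NLRC5, the class I transactivator, was detected on no array, with signals of 405 and 356 in ZNF16 transductants and 316 and 365 in controls. Of 26 factors and receptors that act on class I promoters, 21 were tested, with a smallest limma adjusted p of 0.538. Of the 20 detected in both groups 9 were higher and 11 lower, with a median log2 difference of −0.06. The interferon receptor chains IFNAR2 and IFNGR1 had −0.70 ± 0.21 and −0.66 ± 0.24 (SE), with both ZNF16 arrays below both controls. This held for 30% of the 20, with 25% separated in the other direction, beside 16.8% and 20.1% of all tested entries detected in both groups. The IFNAR2 entry averages several probes and was detected on 1 ZNF16 array. Its difference was −0.315 with no background correction and −0.08 with background statistics over all entries. ATF1, a factor that can bind the X2 box, had −0.48 and NFKB1, an NF-kB subunit, 0.49. IRF1, which binds interferon response elements, had 1.18 ± 0.65. It was not detected on control replicate 2, and the difference was 0.04 without that array, where the B2M and TAP1 differences were −0.61 and −0.995.

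Of 19 interferon response genes 9 were tested, and 8 of these were detected in both groups, a condition added after the data were seen because an entry detected only in controls passes the filter by being higher there. Of the 8, 2 were higher and 6 lower, and their median was −0.23. Both ZNF16 arrays lay below both controls in 3 of them and above in 0, beside 16.8% and 20.1% of the 10242 tested entries detected in both groups. The median over the 9 was −0.31, and it ranged from −0.50 without ZNF16 replicate 2 to −0.16 without control replicate 1, with −0.07 for background statistics over all entries, −0.62 with median scaling and −0.57 in the authors' deposited table of processed values. The antiviral membrane proteins IFITM2 and IFITM3 had −0.80 ± 0.22 and −1.07 ± 0.29 (SE), with limma adjusted p of 0.458 and 0.459. IFI30, the lysosomal thiol reductase of antigen processing, had −0.53 ± 0.24. IFI6, which encodes a small interferon-induced protein, gave 544 and 590 with ZNF16 and 873 and 661 in controls, and was detected on the control arrays only. The entry averages several probes, so no fold is given. Its fitted log2 difference was −0.88, −0.44 without control replicate 1, −0.38 with no background correction and −0.10 with background statistics over all entries.

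Markers of other cells that make much class I were mostly undetected. Of 6 T cell markers 5 were detected on no array, with CD3E among them. The exception was CD3D, an entry averaged over several probes, with signals of 651 and 813 with ZNF16 and 1033 and 1052 in controls and a log2 difference of −0.89. Summed T cell marker signal was 2593 and 2812 with ZNF16 and 2904 and 3102 in controls. CD3D is part of that sum and the other 5 markers were undetected, so the sum is not separate evidence of a difference. Of 5 B cell markers 2 were detected on no array, their sum was 2070.0 and 2164 against 2015 and 2139, and CD79B had a log2 difference of 0.16. Of 6 monocyte markers 5 were detected on no array, with CD14 and LYZ among them. Summed monocyte marker signal was 2863 and 2861 against 2768 and 2658. LYZ alone gave 764 and 729 with ZNF16 and 637 and 593 in controls, above the negative-control mean on every array. As for TAPBP, the detection calls of LYZ do not show that its RNA was missing. Of 5 fibroblast markers 3 were detected on no array, and their sum was 2095 and 1999 against 1973 and 2153. The collagen COL1A2 was detected on both control arrays, at 474 and 486, and neither ZNF16 array, at 422 and 439.9. The part of such cells in the class I differences was not tested.

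**Figure D3:**
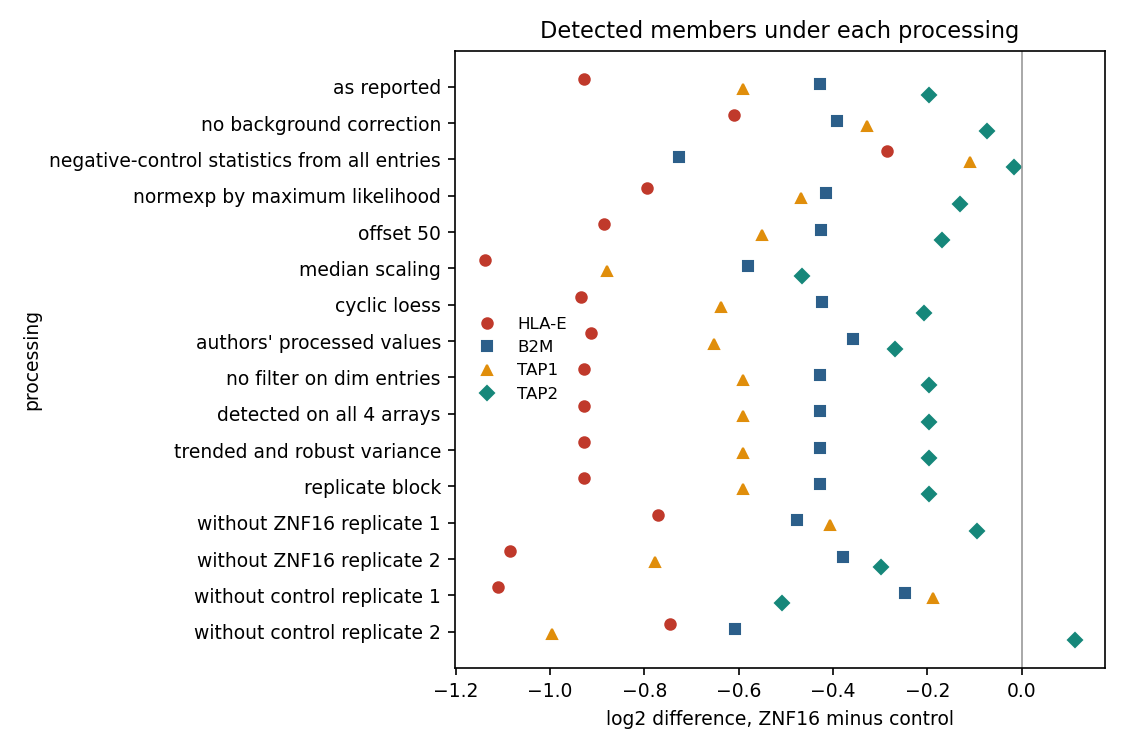
Log2 difference, ZNF16 minus control, of the 4 detected members as reported and under each of 15 other ways of processing. HLA-E, B2M and TAP1 stay below 0 in each of them, HLA-E between −1.14 and −0.29, and TAP2 crosses 0 without control replicate 2. The filters, the variance model and the replicate block leave every point as reported. Leaving out 1 array cannot turn HLA-E, B2M or TAP1, whose groups do not overlap.

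The direction of HLA-E, B2M and TAP1 was the same under the 15 alternatives tried, but the sizes were not. Several of these could not have changed the direction. The filters, the variance model and the replicate block leave the difference itself as it was. Leaving out 1 array cannot turn a gene whose ZNF16 arrays both lie below both controls. Only the changes of background correction, normalization and input values bear on the direction. HLA-E lay between −1.14 with median scaling and −0.29 with background statistics estimated over all entries, TAP1 between −0.995 without control replicate 2 and −0.11 with those same statistics, and B2M between −0.73 with those statistics and −0.25 without control replicate 1. No alternative brought any of the 9 genes past the threshold, and the smallest limma adjusted p was 0.0805, for HLA-E without control replicate 1. There the control group is 1 array, assumed to vary like the ZNF16 arrays, which alone gave the spread.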

How the data were processed

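The labels give 2 ZNF16 and 2 control arrays of K562 RNA. The deposited signals are linear bead intensity values from GenomeStudio 2010.2, per the submitters' processing notes, 1 for each gene symbol. They were taken as neither background-subtracted nor scaled between arrays, judged from their values. Each has a deposited detection p-value, per the file headers. How a gene's probes were combined, and on which genome build and annotation, is not stated there. Detection p-values of 27095 entries lay on steps of 1 in 770 (to within 0.002 of a step) and were taken as single-probe entries, the other 7597 as averages.

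Here, negative-control means and SDs were estimated from the single-probe entries, and the signals were corrected with normexp (limma 3.58.1, R 4.3.3), given an offset of 16, quantile normalized and taken to log2. Entries with a detection p under 0.05 on at least 2 of 4 arrays, 10868 in all, were compared with lmFit and eBayes, two-sided, with Benjamini-Hochberg adjustment over all of them and a threshold of 0.05. Undetected members come from a second fit on all entries. A fold against a group without detection is a bound that takes no account of the spread between arrays. It is taken against the higher of the group's own value and the lowest detected single-probe value on each array. All 9 members are named, and up to 4 genes with the smallest p from each other list, with all loading partners, NLRC5, IRF1, PSMB8, PSMB9 and PSMB10. CD3E, CD14 and LYZ were named after their values were seen, and some genes that this rule names are not reported here. The members and lists were chosen with earlier results of these data known. The fits were tried on simulated data with a spread common to all entries, unlike these data, so that trial does not bear on single genes here. The alternatives included the authors' processed intensity values, floored at 16. Array number limits the precision.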

Additional observations from a re-analysis of the deposited data

How the results depend on the processing

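With 2 arrays in each group no exact permutation test can pass a threshold, and many entries lie near background, where the correction sets the size of a difference. Entries past the threshold numbered 0 as reported and in 9 alternatives, and 3 with normexp by maximum likelihood, with an offset of 50 and with the trended and robust variance, 7 with median scaling, and 0 to 2 with 1 array left out. The replicate numbers name arrays and no shared batch (the within-number deviations correlated at 0.193 over tested entries). With the replicate block 114 entries passed, no member among them, with 1 in the class I-like list (ULBP2, limma adjusted p = 0.0221, which passed the filter through its control arrays alone) and 1 in the interval from HLA-F to TAPBP (DDAH2, named after its value was seen). The median over tested members, −0.51, was −0.20 with negative-control statistics from all entries and −0.73 with median scaling. It was −0.20 with no filter, where it covers all 9 members, and −0.68 to −0.38 with 1 array left out. Median scaling moved the median of all entries to −0.19, and relative to it HLA-E was at −0.95, B2M −0.39, TAP1 −0.69 and TAP2 −0.28. With 1 array left out, HLA-C ranged from −0.14 to 0.063, HLA-G from −0.0057 to 0.065, TAPBP from −0.60 to 0.20 and TAP2 from −0.51 to 0.11, and HLA-C turned to 0.049 with median scaling. HLA-B ranged from −0.42 to −0.11 and reached −0.89 in the authors' processed intensities, and HLA-F ranged from 0.08 to 0.20 and reached 0.34 with normexp by maximum likelihood. HLA-B, HLA-C, HLA-F, HLA-G and TAPBP were detected on no array, so these are differences between undetected signals. The authors' values of HLA-C, HLA-F and HLA-G were negative on every array, below the floor of 16 set here, and gave no difference. Of the other 40 named genes 12 changed sign at least once. With median scaling GANAB had −0.029, ERAP2 −0.076, UGCGL1 −0.25, BCAP31 −0.18, PSMB7 −0.18 and HLA-DRA −0.15. ERAP2 had −0.0044 with normexp by maximum likelihood, and BCAP31 −0.024 and PSMB7 −0.019 with cyclic loess. In the authors' processed values ERAP2 had −0.088 and UGCGL1 −0.042. With 1 array left out the ranges were −0.28 to 0.31 for ERAP2, −0.23 to 0.32 for UGCGL1, −0.16 to 0.16 for BCAP31, −0.094 to 0.12 for PSMB7, −0.30 to 0.18 for HSPA5, −0.91 to 0.35 for MR1, −0.65 to 0.17 for HLA-DRB3, −0.63 to 0.28 for HLA-DMA, −0.38 to 0.27 for HLA-DRB4, −0.26 to 0.29 for HLA-DRA and −0.80 to 0.0076 for GATA1. Where an array was left out, fewer samples remained. The cause of the other changes was not tested.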

Other observations

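Class I-like surface proteins include the stress-induced ligands of NKG2D, an activating receptor of natural killer cells. ULBP2 gave signals of 431 and 451 with ZNF16, where it was not detected, and 550 and 684 in controls, which put it at least 1.94-fold lower with the correction used here (limma adjusted p = 0.353). Its fitted log2 difference shrank to −0.48 with no background correction and −0.09 with background statistics over all entries. ULBP1 gave 494 and 580 against 654 and 661, a log2 difference of −0.74 ± 0.28 (SE, n = 2 arrays a group), and −0.40 without ZNF16 replicate 1. Of 18 listed entries 7 were tested, ULBP2 passing only through its control arrays, and of the 6 detected in both groups 2 were higher and 4 lower, and their median was −0.22. The median over the 7 was −0.28. With 1 array left out it ran from −0.82 without ZNF16 replicate 2 to −0.06 without ZNF16 replicate 1. It was −0.04 with background statistics over all entries and −0.59 with median scaling. With no filter, where it covers all 18 listed entries, it was 0.002. PROCR, the endothelial protein C receptor, had −0.53 (−0.24 when ZNF16 replicate 1 was left out, −0.29 when control replicate 1 was), and the metabolite-presenting MR1 −0.28. None passed the test.

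Class II genes were close to background, with 8 of 14 detected on no array. Of 4 tested 1 was higher and 3 lower, and HLA-DRB3, HLA-DMA, HLA-DRB4 and HLA-DRA had −0.24, −0.17, −0.05 and 0.02, all smaller than their standard errors. The pseudogene entry HCG2P7, which averages several probes, had −0.64 ± 0.32 (SE), and −0.21 without control replicate 2. Of 8 tested genes of degradation and traffic 3 were higher and 5 lower, with the ubiquitin ligase STUB1 at −0.50, the clathrin adaptor subunit AP2M1 at −0.39 and UBE2G2 at −0.30. Without control replicate 2 STUB1 was −0.15, AP2M1 −0.04 and UBE2G2 −0.02.

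The other genes lying between HLA-F and TAPBP on the chromosome, a list added after values were seen, held 54 tested entries. Of the 53 detected in both groups 24 were higher and 29 lower, with a median log2 difference of −0.05. Both ZNF16 arrays lay below both controls in 22.6% of these and above in 11.3%, beside 16.8% and 20.1% of all tested entries detected in both groups.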
